A study of Mus musculus with 24 samples.

Results

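The mRNAs of 10 insulin and IGF signalling components were examined in dispersed mouse islet cells, namely the growth factor Igf1, the receptors Insr, Igf1r and Igf2r, the adaptors Irs1 and Irs2, the PI3-kinase subunit Pik3r1, the kinases Akt1 and Akt2 and the transcription factor Foxo1. The members were taken by gene symbol from the 41549 genes of the deposited mRNA table, where each symbol occurred once, and all 10 were among the 15916 genes with enough counts to be tested. The cells came from wild-type C57BL/6NRj mice of both sexes, aged 12 to 14 weeks. According to the study, the groups of a replicate share an animal, but the labels do not say which libraries do, and the tests here treat the libraries as separate within a batch. They were transfected overnight with 50 pmol of a locked nucleic acid antisense oligonucleotide (ASO), either an inhibitor control (Ctr) or one directed against the 5'tRF Glu(CTC), a fragment from the 5' end of a glutamate tRNA (αGlu). Cells of both kinds were then kept for 48 h in medium with 1% serum and either 0.5 mM palmitate complexed with BSA (PA) or 0.75% fatty-acid-free BSA alone (BSA). This gave 4 groups of 6 libraries (Ctr or αGlu cells, each in BSA or PA), with 3 libraries of each group in batch 1 (S1 to S12) and 3 in batch 2 (S13 to S24). The labels do not say what a batch is, and the mRNA table holds no measure of the tRNA fragment, so the action of the ASO on its target was not analysed here.

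Insulin and the insulin-like growth factors bind receptor tyrosine kinases on the cell surface. The activated receptor phosphorylates IRS adaptors, these recruit PI3-kinase, and the lipid that PI3-kinase makes brings Akt to the membrane. Akt in turn keeps FoxO transcription factors out of the nucleus, where they would otherwise raise genes of fasting and stress resistance, Irs2 among them. In β-cells, Irs2 in particular is known for its part in the maintenance of β-cell mass, and islet cells both secrete insulin and carry its receptor.

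Library totals ran from 18214719 to 35001979 counts. All 10 β-cell markers, which include Ins1 and Ins2, were detected in every library and together made up 8.40% to 15.2% of the counts. Ins1 and Ins2 are near-identical copies whose reads the counting could split. The cultures were mixtures, with markers of α, δ and PP cells, acinar, ductal, endothelial and glial cells, macrophages and fibroblasts also detected, so fewer cells of a type and less RNA per cell cannot be told apart in any result below. A pair of libraries stood apart for the members. Ctr BSA S1, the shallowest library, held the lowest levels in CPM of Insr, Igf2r and Pik3r1 and the highest of Akt1 of all 24 libraries, and Ctr PA S23 held the highest of Foxo1 and Igf1r and the lowest of Akt1. With both left out, as with all libraries, 5 members passed the test of PA against BSA in Ctr cells and 5 in αGlu cells, and none changed its call.

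Levels between genes were compared in TPM, a read count corrected for transcript length and library size. Igf1r and Akt1 were the highest, at 102 ± 15.7 TPM and 102 ± 11.8 TPM (mean ± SD, n = 24 libraries), and their order turned with the batch. Igf1r was below Akt1 in all 12 libraries of batch 1 (90.1 ± 10.4 against 109.9 ± 8.58 TPM) and above it in all 12 of batch 2 (114 ± 9.51 against 94.1 ± 9.03 TPM). Igf2r followed at 86.8 ± 12.7 TPM and was below Akt1 in all 24 libraries. Pik3r1 at 39.9 ± 5.26 TPM and Akt2 at 38.7 ± 4.83 TPM formed the next pair, and here the order went with the medium, with Pik3r1 above Akt2 in 11 of 12 BSA libraries (all but S1) and in 1 of 12 PA libraries (S23). Foxo1 at 30.1 ± 3.35 TPM and Irs2 at 29.8 ± 4.67 TPM followed, with Foxo1 above Irs2 in 0 of 12 libraries of batch 1 and 10 of 12 of batch 2. The 3 lowest members kept their places in every library. They were Insr at 18.3 ± 3.81 TPM, Irs1 at 6.12 ± 0.827 TPM and Igf1 at 1.22 ± 0.856 TPM. Thus IGF1 receptor mRNA was more abundant than insulin receptor mRNA, and Irs2 more abundant than Irs1, in each of the 24 libraries. Among genes with a mean TPM above 0, Igf1r lay above 96.5% and Igf1 above 47.2%.

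**Figure D1:**
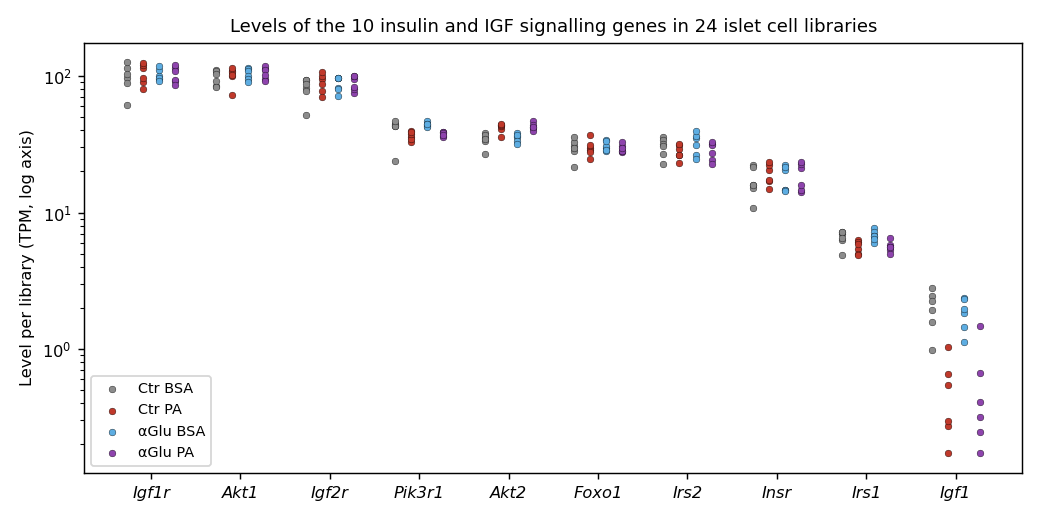
Level of each member in TPM on a log axis, with 1 point for each of the 24 libraries, coloured by group and ordered by mean. The members ran from about 102 TPM for Igf1r and Akt1 to 1.22 TPM for Igf1, and only Igf1 spread over more than a factor of 10. Its lowest points were PA libraries, but PA S7 (1.03 TPM) and S8 (1.47 TPM) lay above BSA S1 (0.980 TPM).

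To describe how the lipotoxic medium affected these genes, PA was compared with BSA within the Ctr cells and, in other libraries, within the αGlu cells. Since the groups of a replicate share an animal according to the study, these comparisons are not independent. The tests used counts scaled for library size, given as CPM, and a gene was called when its Benjamini-Hochberg adjusted p in edgeR was below 0.05. In Ctr cells 5 of 10 members were called, 1 higher (Akt2) and 4 lower (Igf1, Irs1, Irs2 and Pik3r1), where 30% of all tested genes were called. In αGlu cells the same 5 members were called in the same directions, where 28.5% of all tested genes were called. The median log2 fold change over the members was -0.03 in both kinds of cells, beside 0.01 over all genes tested. The threshold of the study asks for more than a 2-fold change and p below 0.05. The study names Benjamini-Hochberg correction but does not say whether this p was adjusted, and it was taken here as unadjusted. Igf1 passed this threshold, as did 5.91% of all tested genes in Ctr and 5.57% in αGlu cells, and the other 9 members did not. In CPM, the PA and BSA libraries did not overlap for 2 members in Ctr cells (Igf1 and Akt2) and 2 in αGlu cells (Irs1 and Akt2). This compares with 5.82% and 8.12% of all tested genes. The result depended on the scaling. In TPM no member kept its groups apart in Ctr cells, and Akt2 and Pik3r1 did so in αGlu cells.

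Igf1 (ENSMUSG00000020053, chr10:87858265-87937042 on GRCm38, plus strand) encodes a secreted growth factor made by liver and by many stromal cells. In Ctr BSA its level ran from 4.64 to 9.48 CPM with a median of 7.46, and in Ctr PA from 0.635 to 3.61 CPM with a median of 1.48. All 6 PA libraries lay below all 6 BSA libraries in CPM, while in TPM Ctr PA S7 at 1.03 lay above Ctr BSA S1 at 0.980. The fold change was -2.12 on the log2 scale (SE 0.374, edgeR adjusted p = 0.000139), which put Igf1 4.36-fold lower in PA. In αGlu cells the level ran from 4.34 to 8.53 CPM in BSA (median 6.23) and from 0.649 to 4.94 CPM in PA (median 1.29). Here 5 of 6 PA libraries lay below all BSA libraries, and S8 at 4.94 CPM overlapped them. The log2 fold change in αGlu cells was -1.85 (SE 0.372, edgeR adjusted p = 0.000573), and in batch 1 alone, which holds S8, it was -1.33 and not called (edgeR adjusted p = 0.115). The lowest library, αGlu PA S16, held 17 reads of Igf1. The antisense gene Igf1os overlaps Igf1, genes on the opposite strand also overlap Insr, Irs1, Irs2 and Foxo1, and the sources do not state whether strand was used in counting.

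Markers of fibroblasts and stellate cells fell together with Igf1. Of 8 tested markers, 7 fell in Ctr PA and 5 in αGlu PA, and none rose. The median log2 fold changes over these 8 were -2.87 and -2.47. The summed level of the 9 markers, of which Col1a1 and Col3a1 were the most abundant, ran from 83.1 to 439 CPM in Ctr BSA and from 8.09 to 45.8 CPM in Ctr PA. In αGlu cells it ran from 45.3 to 955 CPM in BSA and from 5.16 to 163 CPM in PA. In each of the 4 groups the library with the highest Igf1 was also the one with the highest sum, S5, S7, S18 and S8. The lowest Igf1 and the lowest sum shared a library only in αGlu BSA (S22). They lay in S1 and S9 in Ctr BSA, S15 and S11 in Ctr PA, and S16 and S12 in αGlu PA. Of the 9 markers 4 were at 0 in some library and none in all. Macrophage markers fell in 6 of 10 cases in Ctr PA and 1 of 10 in αGlu PA, with median log2 fold changes over the 10 of -2.17 and -0.31. Most of their sum came from C1qa, at a mean of 86.3 CPM over all libraries, followed by Lyz2 at 19.4 CPM. The sums were 82.3 to 366 CPM in Ctr BSA and 85.2 to 129.8 CPM in Ctr PA. In αGlu cells the sums were 94.4 to 175 CPM in BSA and 82.98 to 138.7 CPM in PA. Compared directly by edgeR, the PA responses of αGlu and Ctr cells differed for 0 of 10 macrophage markers, with 5 at an unadjusted p below 0.05. The part of fibroblasts, stellate cells and macrophages in the fall of Igf1 was not tested.

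**Figure D2:**
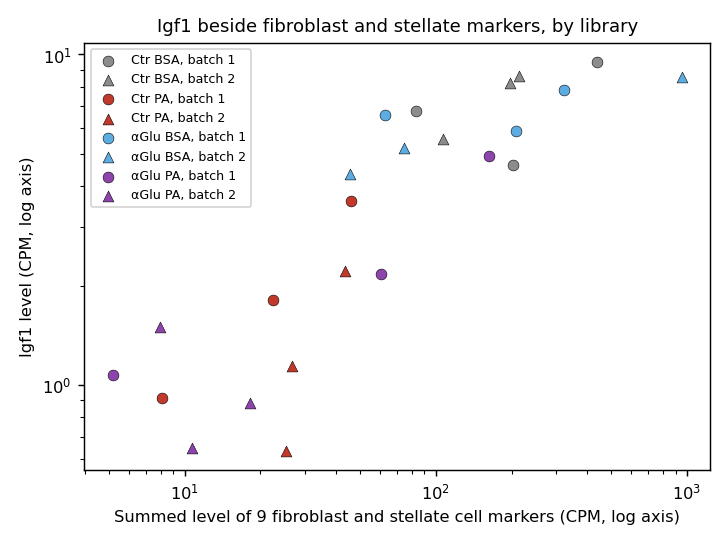
Igf1 in CPM against the summed CPM of 9 fibroblast and stellate cell markers, both on log axes, with 1 point for each library, coloured by group and shaped by batch. The PA libraries of Ctr cells lay at 8.09 to 45.8 CPM of marker sum and at 0.635 to 3.61 CPM of Igf1, below the Ctr BSA libraries on both axes.

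The genes most like Igf1 across the 24 libraries were Plau, the urokinase plasminogen activator (Pearson's r of log2 CPM 0.95), Timp3, an inhibitor of matrix metalloproteinases (0.94), and Lox, which crosslinks collagen (0.93). Within groups and batches, after the mean of each had been removed, r was still 0.90 for Plau, 0.88 for Timp3 and 0.85 for Lox. These values describe 24 libraries that share groups, batches and preparations.

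Among the receptors, Insr (ENSMUSG00000005534, chr8:3122061-3279617, minus strand) encodes the insulin receptor. Its level ran from 71.2 to 105 CPM in Ctr BSA (median 79.5) and from 76.6 to 109.5 CPM in Ctr PA (median 94.9). The groups overlapped, and the log2 fold change of 0.14 (95% interval -0.02 to 0.29) did not pass (edgeR adjusted p = 0.176). Without the low Ctr BSA library S1 the change was 0.06, the lowest value over all libraries left out. In αGlu cells the levels were 72.1 to 104 CPM in BSA (median 84.3) and 74.9 to 111 CPM in PA (median 87.3), with a log2 fold change of 0.05 (edgeR adjusted p = 0.652).

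Igf1r (ENSMUSG00000005533, chr7:67952827-68233668, plus strand), the receptor for IGF1, ran from 497 to 754 CPM in Ctr BSA (median 599.6) and from 483 to 825 CPM in Ctr PA (median 623). In αGlu cells it ran from 517 to 742 CPM in BSA (median 589) and from 496 to 743 CPM in PA (median 607). The groups overlapped almost wholly. The log2 fold changes were 0.04 (95% interval -0.09 to 0.16) in Ctr cells and 0.00 (-0.13 to 0.13) in αGlu cells.

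Igf2r (ENSMUSG00000023830, chr17:12682406-12769664, minus strand) encodes the mannose 6-phosphate receptor, which takes up IGF2 for breakdown in lysosomes. Levels were 232 to 304 CPM in Ctr BSA (median 282) and 257 to 340.4 CPM in Ctr PA (median 289.9), and 259.5 to 307 CPM in αGlu BSA (median 283) and 269 to 321 CPM in αGlu PA (median 288). The log2 fold changes of 0.10 (edgeR adjusted p = 0.241) and 0.04 (0.664) did not pass. The antisense transcript Airn overlaps Igf2r.

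The adaptors fell. Irs1 (ENSMUSG00000055980, chr1:82233101-82291416, minus strand) is the adaptor first found as a substrate of the insulin receptor. It ran from 20.4 to 23.7 CPM in Ctr BSA (median 21.9) and from 16.2 to 21.04 CPM in Ctr PA (median 17.9), where 5 of 6 PA libraries lay below all BSA libraries and S23 overlapped them. Its fall was 17.7% (log2 fold change -0.28, SE 0.066, edgeR adjusted p = 0.00231). In αGlu cells Irs1 ran from 20.3 to 22.8 CPM in BSA (median 22.1) and from 16.9 to 20.2 CPM in PA (median 18.1), with no overlap. In TPM these αGlu groups did overlap, with Irs1 at 6.48 in PA S12 and 5.97 in BSA S18. Its log2 fold change there was -0.26 (SE 0.066, edgeR adjusted p = 0.00395), and the call held with any single library left out in both kinds of cells.

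Irs2 (ENSMUSG00000038894, chr8:10984681-11008458, minus strand), the more abundant adaptor, changed less. Levels were 62.8 to 77.5 CPM in Ctr BSA (median 70.8) and 57.4 to 68.5 CPM in Ctr PA (median 63.7), and within each batch the Ctr PA libraries lay below the Ctr BSA libraries. The log2 fold change was -0.18 (SE 0.054, edgeR adjusted p = 0.016), a fall of 11.4%. In αGlu cells levels were 60.8 to 84.5 CPM in BSA (median 71.7) and 53.9 to 71.3 CPM in PA (median 64.4), with a log2 fold change of -0.17 (SE 0.054, edgeR adjusted p = 0.0178). The call in Ctr cells was lost without S13 (log2 fold change -0.15), and that in αGlu cells without S10 (-0.14), S14 (-0.15) or S20 (-0.15). It was also lost without the batch term, at -0.17 in both kinds of cells.

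The stretches before the start sites of the adaptor genes are shown because FoxO factors are known to act on Irs2. The mouse RefSeq promoter table on GRCm38.p6 held 9 of the 10 members, all but Insr. For Irs1 and Irs2 the 250 bases before the annotated start are printed on the strand of the gene, 5' to 3', at chr1:82291440-82291689 and chr8:11008930-11009179, both on the minus strand, with capitals for the FoxO core TTGTTT on either strand and for the E-box CACGTG. The Irs2 start in this table lies before the start of the gene given above.
Irs1: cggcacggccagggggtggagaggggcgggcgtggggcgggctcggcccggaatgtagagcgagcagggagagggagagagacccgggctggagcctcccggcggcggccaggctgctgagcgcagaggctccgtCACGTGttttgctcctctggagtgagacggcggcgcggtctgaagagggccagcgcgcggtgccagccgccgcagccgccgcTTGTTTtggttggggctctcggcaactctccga
Irs2: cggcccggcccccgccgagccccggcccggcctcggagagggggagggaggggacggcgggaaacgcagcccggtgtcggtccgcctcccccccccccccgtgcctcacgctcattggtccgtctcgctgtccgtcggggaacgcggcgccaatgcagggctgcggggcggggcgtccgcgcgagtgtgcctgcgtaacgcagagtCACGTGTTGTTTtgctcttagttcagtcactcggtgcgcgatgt
Both stretches held 1 TTGTTT, beginning 33 bases before the start in Irs1 and 38 bases before it in Irs2, and both held 1 CACGTG, beginning 115 and 44 bases before the start. In Irs2 the motifs adjoined. Of all 32851 stretches of this length, 18.3% held TTGTTT on either strand, 6.02% held CACGTG and 0.794% held both. The longer FoxO sequence GTAAACA, found on either strand in 3.17% of stretches, was in neither. Other members held these letters too. Akt1, which did not pass, held 2 TTGTTT and 1 GTAAACA before the first of its 2 starts, and Igf2r, which did not pass either, held 2 CACGTG. Igf1 and Pik3r1, which fell, held none of the 3 motifs before any start, nor did Igf1r and Foxo1. These are matches of letters and not sites shown to be bound.

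Further down the pathway, Pik3r1 (ENSMUSG00000041417, chr13:101680563-101768217, minus strand) encodes the p85α regulatory subunit that ties PI3-kinase to the adaptors. Its level ran from 116 to 175 CPM in Ctr BSA (median 155) and from 118 to 156 CPM in Ctr PA (median 131), where S1 lay below all PA libraries and S23 lay above 3 of the BSA libraries other than S1. The log2 fold change was -0.20 (SE 0.064, edgeR adjusted p = 0.0194), and it was not called without S9 (-0.17) or S21 (-0.17), in a fit of both groups alone (-0.20) or without the batch term (-0.20). In αGlu cells levels were 140.1 to 177 CPM in BSA (median 159.9) and 123 to 144 CPM in PA (median 135), and 5 of 6 PA libraries lay below all BSA libraries. The log2 fold change there was -0.23 (SE 0.064, edgeR adjusted p = 0.00754), a fall of 14.9%, which was not called without the batch term (-0.23).

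Akt2 (ENSMUSG00000004056, chr7:27591552-27640826, plus strand), the Akt kinase best known for glucose metabolism, was the member that rose. It ran from 86.5 to 92.9 CPM in Ctr BSA (median 91.4) and from 98.1 to 117 CPM in Ctr PA (median 107). In αGlu cells it ran from 84.1 to 95.3 CPM in BSA (median 89.2) and from 99.8 to 114 CPM in PA (median 109). In CPM every PA library lay above every BSA library, in both kinds of cells and both batches. In TPM this held in αGlu cells, but Ctr PA S23 at 35.9 lay below Ctr BSA S5 at 38.2 and S17 at 36.8. The log2 fold change was 0.23 in Ctr cells (SE 0.045, edgeR adjusted p = 0.000338), a rise of 17.6%, and 0.28 in αGlu cells (SE 0.045, edgeR adjusted p = 5.04e-05), a rise of 21.2%.

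Akt1 (ENSMUSG00000001729, chr12:112653821-112674884, minus strand), the paralog best known for growth and survival, did not pass. Its level ran from 126 to 166 CPM in Ctr BSA (median 153) and from 117 to 159 CPM in Ctr PA (median 152). In αGlu cells it ran from 145 to 157 CPM in BSA (median 150.4) and from 142 to 166 CPM in PA (median 152.5), and the groups overlapped. These were log2 fold changes of -0.02 (95% interval -0.13 to 0.09) in Ctr cells and 0.03 (-0.08 to 0.14) in αGlu cells. The ratio of Akt1 to Akt2 in TPM within a library was 2.85 ± 0.275 in Ctr BSA and 2.40 ± 0.253 in Ctr PA, and 2.92 ± 0.170 in αGlu BSA and 2.46 ± 0.139 in αGlu PA (SD, n = 6 each). These ratios were not tested. The αGlu groups did not overlap, and the Ctr groups overlapped over both batches but not within either batch. The ratio of Irs2 to Irs1 was 4.66 ± 0.346 in Ctr BSA and 5.08 ± 0.763 in Ctr PA, and these groups overlapped.

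The stretch before the start of Akt2 is shown as that of the member that rose. RefSeq gives 4 starts for Akt2, and the first is printed, chr7:27591302-27591551 on the plus strand, with the same use of capitals.
Akt2: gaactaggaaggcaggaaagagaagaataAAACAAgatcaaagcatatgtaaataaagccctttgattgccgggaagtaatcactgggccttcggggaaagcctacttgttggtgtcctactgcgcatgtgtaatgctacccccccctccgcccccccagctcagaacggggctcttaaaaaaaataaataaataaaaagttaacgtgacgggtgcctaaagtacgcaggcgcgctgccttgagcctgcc
It held 1 FoxO core, on the other strand, beginning 221 bases before the start, and no E-box. Of the other starts of Akt2, the second and the third had none of the motifs before them, and the 4th had 7 FoxO cores and no E-box. Those 7 are overlapping matches within a run of repeated TTTG.

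Foxo1 (ENSMUSG00000044167, chr3:52268336-52353221, plus strand), the FoxO factor most studied in β-cells, ran from 85.3 to 115 CPM in Ctr BSA (median 90.9) and from 75.7 to 127 CPM in Ctr PA (median 88.8). In αGlu cells it ran from 83.4 to 113 CPM in BSA (median 93.8) and from 81.6 to 96.96 CPM in PA (median 92.7). The groups overlapped, and the log2 fold changes of -0.04 (95% interval -0.20 to 0.12) and -0.05 (-0.21 to 0.11) did not pass. mRNA levels say nothing of the phosphorylation by which FoxO1 and Akt are mainly controlled.

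**Figure D3:**
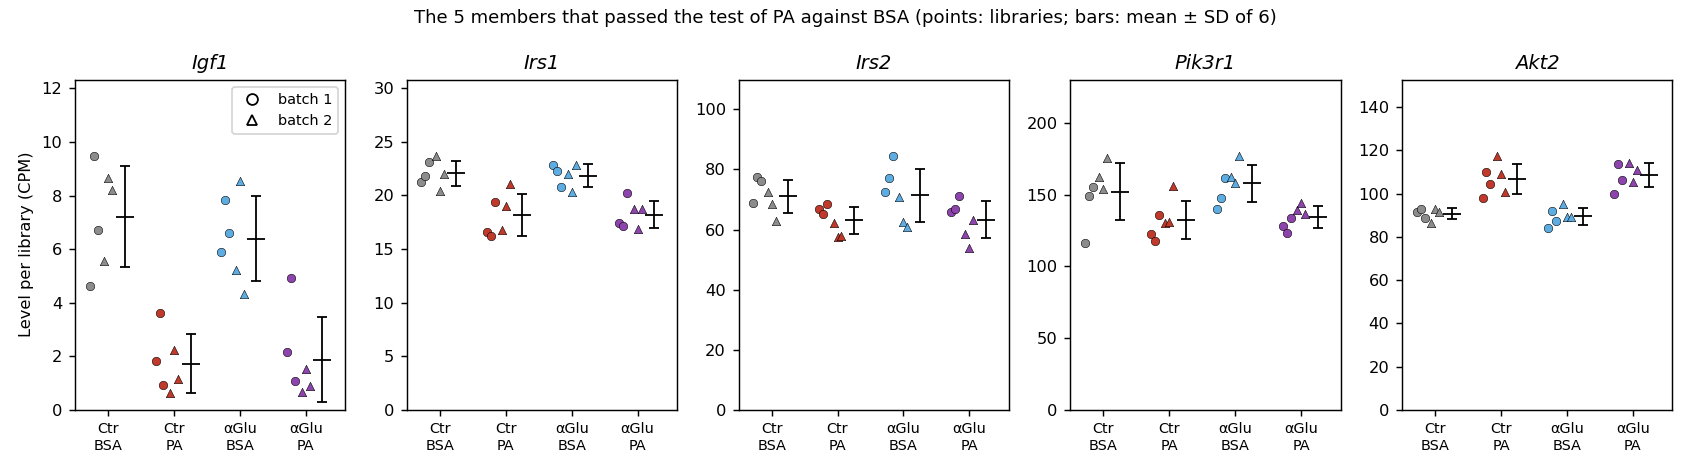
Level in CPM of the 5 called members, from an axis that starts at 0, with 1 point for each library (circles batch 1, triangles batch 2) and the mean ± SD of 6 libraries beside each group. In PA the points of Igf1 sat far below those in BSA, while Irs1, Irs2 and Pik3r1 fell by 11.3% to 17.7% and Akt2 rose by 17.6% and 21.2%.

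The falls of the adaptors and Pik3r1 had the same direction in both batches. Taking batch 1 first and batch 2 second, the log2 fold changes in Ctr cells were -0.35 and -0.22 for Irs1, -0.16 and -0.20 for Irs2, and -0.17 and -0.24 for Pik3r1. Akt2 gave 0.19 and 0.27, and Igf1 -1.74 and -2.49. A fit of 1 batch alone, with 12 libraries, called only Igf1 and Irs1 among the members in the Ctr cells of batch 1, and only Igf1 and Akt2 in batch 2. In αGlu cells, again with batch 1 first, Irs1 gave -0.27 and -0.26, Irs2 -0.21 and -0.14, Pik3r1 -0.23 and -0.24, Akt2 0.27 and 0.28, and Igf1 -1.33 and -2.56. Akt2 alone was called there in batch 1, and Igf1 and Akt2 in batch 2. Acinar cell markers also fell with PA, 7 of 9 in Ctr and 7 of 9 in αGlu cells, and their sum was 230.2 to 607 CPM in the Ctr libraries of batch 2 but 3159 to 23657 CPM in those of batch 1. The part of acinar cells in these changes was not tested.

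Blocking the tRNA fragment was compared with the control ASO in BSA and in PA, to see whether it altered the pathway or its response. No member was called in BSA or in PA by edgeR or by DESeq2, none had an unadjusted p below 0.05, and 0% of all tested genes were called in either comparison by edgeR. At an unadjusted p below 0.05 there were 461 genes in the BSA comparison and 538 in that of PA, and DESeq2 called 8 and 30. Leaving Igf1 aside, the 95% intervals of the other 9 members ran from -0.18 to 0.19 on the log2 scale in BSA and from -0.23 to 0.18 in PA. The outermost limits were -14.6% and 13.8%. Each interval holds for 1 member taken alone, and the limits are not a joint bound on the members. Igf1 was less precise, with log2 differences of -0.20 (-0.91 to 0.51) in BSA and 0.08 (-0.71 to 0.87) in PA. Averaged over BSA and PA, no member was called by edgeR either (0 at an unadjusted p below 0.05), while 0.239% of all tested genes were.

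The PA responses of αGlu and Ctr cells were also compared directly. No member differed by edgeR or by DESeq2, none had an unadjusted p below 0.05, and 0% of all tested genes were called. Over all tested genes, 332 had an unadjusted p below 0.05, and DESeq2 called 0. The differences in log2 fold change ran from -0.09 (Insr) to 0.28 (Igf1), with intervals from -0.30 to 0.22 for the members other than Igf1 and from -0.79 to 1.34 for Igf1. For Akt2 the difference was 0.04 (95% interval -0.09 to 0.17), for Irs1 0.02 (-0.17 to 0.21) and for Irs2 0.00 (-0.15 to 0.16).

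**Figure D4:**
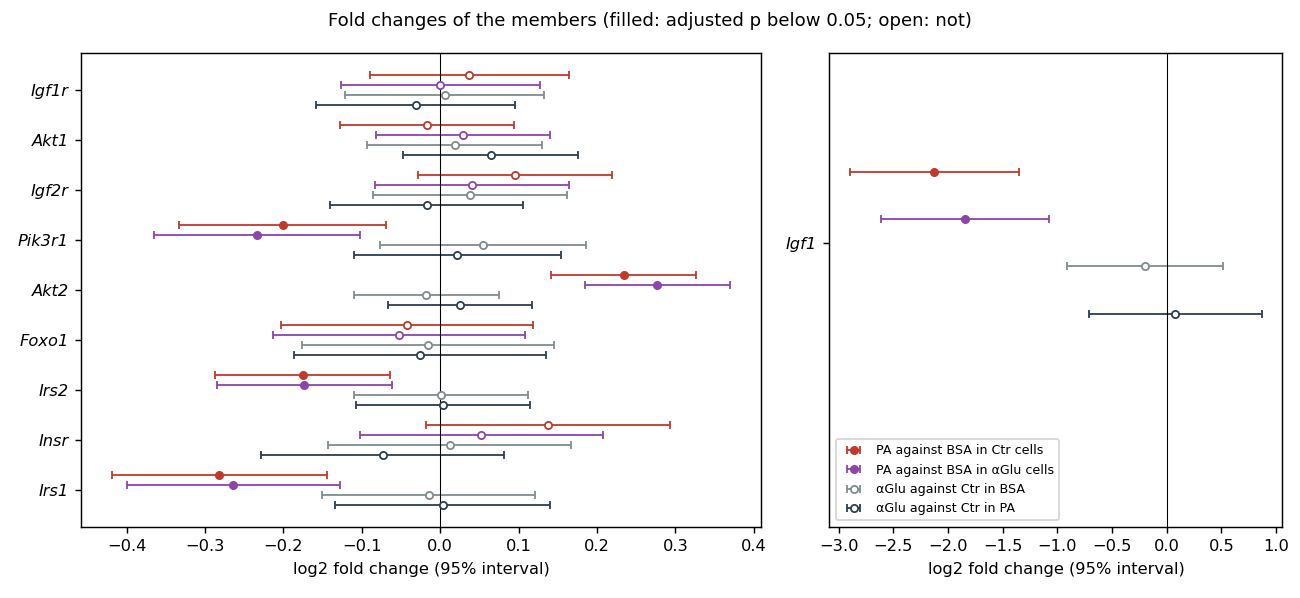
Log2 fold changes with 95% intervals for 9 members at left and for Igf1 at right on its own axis, in 4 comparisons marked by colour, with filled points for an adjusted p below 0.05. The intervals of αGlu against Ctr crossed 0 for every member, whereas those of PA against BSA lay clear of 0 for Igf1, Irs1, Irs2, Pik3r1 and Akt2 in both kinds of cells.

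For the receptors, the point estimates were larger between the batches than between the groups. Between batch 2 and batch 1, 7 of 10 members were called, 3 higher (Igf1r, Foxo1 and Pik3r1) and 4 lower (Insr, Igf2r, Irs2 and Akt1), where 51.5% of all tested genes were called. Igf1r ran from 483 to 567 CPM in batch 1 (median 521) and from 610.4 to 825 CPM in batch 2 (median 707), with no overlap, as for 6.87% of all tested genes. In TPM the batches did overlap, with Igf1r at 100.4 in S6 of batch 1 and 92.7 in S22 of batch 2. The log2 difference of Igf1r was 0.44 (SE 0.044, edgeR adjusted p = 9.5e-09). Insr went the other way, from 104 CPM (median; 71.2 to 111) in batch 1 to 76.99 CPM (72.1 to 94.6) in batch 2, with a log2 difference of -0.36 (SE 0.053, edgeR adjusted p = 4.59e-06). Apart from S1 in batch 1 and S23 in batch 2, the ranges of Insr did not overlap.

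Thus the ratio of Igf1r to Insr in TPM was 4.34 ± 0.535 in batch 1 and 7.44 ± 0.593 in batch 2 (SD, n = 12 each), without overlap (3.62 to 5.71 against 6.45 to 8.32). Smaller differences were seen for Irs2 (log2 difference -0.20), Foxo1 (0.20), Pik3r1 (0.16), Igf2r (-0.14) and Akt1 (-0.14). Cell markers moved with the batches as well. All 10 β-cell markers were higher in batch 2, and all 9 acinar markers were lower, with acinar sums of 3159 to 23657 CPM in batch 1 and 230.2 to 619 CPM in batch 2. The sums of the β-cell markers overlapped. S1 of batch 1 lay at 133970 CPM, within the 110380 to 152070 CPM of batch 2, and the rest of batch 1 at 84046 to 99063 CPM. The part of the cell mixture in the batch differences of the receptors was not tested. No member's PA response differed between the batches (edgeR, 0 at an unadjusted p below 0.05), where 0.0565% of all tested genes did, and the largest difference was that of Igf1, at -1.0 on the log2 scale (95% interval -2.04 to 0.04).

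**Figure D5:**
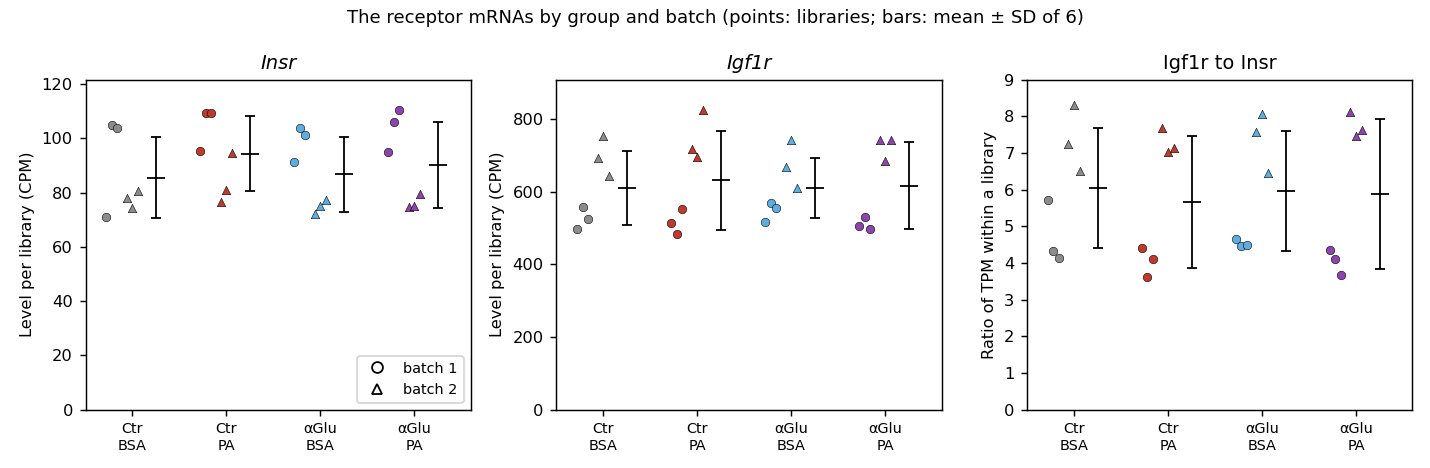
Levels of Insr and Igf1r in CPM and their ratio in TPM, with 1 point for each library (circles batch 1, triangles batch 2), the mean ± SD of 6 beside each group, and axes that start at 0. Batch 2 libraries sat higher for Igf1r and for the ratio in all 4 groups, and the group means differed little.

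The wider pathway was described with 9 lists written by hand, which together held 107 tested genes besides the members. In Ctr cells 14 of these rose and 21 fell in PA (32.7% called), and in αGlu cells 16 rose and 23 fell (36.4%), beside 30% and 28.5% of all tested genes. The median log2 fold changes were -0.07 and -0.04. No gene of the lists was called in αGlu against Ctr by edgeR or DESeq2, with 2 genes (BSA) and 4 genes (PA) at an unadjusted p below 0.05.

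Of the ligands, Ins1 fell in PA from 32322 ± 6047 to 23935 ± 4529 CPM in Ctr cells (log2 fold change -0.44, edgeR adjusted p = 0.00058) and by 0.32 on the log2 scale in αGlu cells. Ins2 fell in Ctr cells (-0.34, edgeR adjusted p = 0.0088) and had -0.22 in αGlu cells, which did not pass. Igf2, a growth factor, was low at 18.2 ± 9.37 CPM in Ctr BSA and 11.2 ± 4.32 CPM in Ctr PA, did not pass in Ctr cells (-0.65, edgeR adjusted p = 0.0938) and fell in αGlu cells (-1.06, edgeR adjusted p = 0.00927).

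Of 12 tested IGF binding proteins and their proteases, 2 rose and 4 fell in Ctr PA. Igfbp2 fell from 2.10 ± 1.08 to 0.108 ± 0.100 CPM (log2 fold change -4.24), and Igfbp7, a secreted relative of the IGF binding proteins, from 121 ± 19.6 to 66.1 ± 7.92 CPM (-0.86). Igfals, which stabilises circulating IGF complexes, rose from 41.01 ± 13.6 to 56.1 ± 12.1 CPM (0.49), and Stc2, an inhibitor of an IGF binding protein protease, rose by 0.86. The same 4 genes were called in the same directions in αGlu cells, with -4.27, -0.77, 0.59 and 0.91. Pappa2, a protease of IGF binding proteins, was not called in either kind of cell with PA (0.19 in Ctr, 0.05 in αGlu). It is named after its values were seen, as the 1 gene of the pathway lists whose PA response differed between the batches (-0.58 in batch 2 against batch 1, edgeR adjusted p = 0.000546).

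Of 15 tested receptor and adaptor proteins, 1 rose and 4 fell in Ctr PA, and of 8 tested PI3-kinase and Akt genes none rose and 2 fell. The scaffold Gab2 rose (0.28), and Dok4 (-0.49) and Gab1 (-0.52) were among those that fell. Dok4 had 0.00 in αGlu cells, where Gab2 (0.28) and Gab1 (-0.66) were called as in Ctr cells. The PI3-kinase genes that fell were Pik3r2 (-0.37), the paralog of Pik3r1, and the catalytic subunit Pik3cb (-0.37), with -0.18 (not passed) and -0.41 in αGlu cells. Between the batches Gab1 (-1.24) and Pik3cb (-0.70) were lower in batch 2.

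Of 16 tested genes of the mTOR complexes and their effectors, 3 rose and 2 fell in Ctr PA. Mtor itself fell from 151 ± 10.99 to 112 ± 9.10 CPM (log2 fold change -0.42, edgeR adjusted p = 7.46e-06), and Rictor, a defining subunit of mTORC2, fell by 0.26 on the log2 scale. Eif4e, the cap-binding factor, rose (0.32), as did Tsc1 (0.21), a brake on mTORC1. In αGlu cells all 4 were called again, at -0.43, -0.38, 0.17 and 0.20.

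Other substrates of Akt gave 1 gene that rose and 2 that fell of 10, namely Gsk3a (0.13), Pfkfb2 (-0.24) and Foxo3 (-0.18). Of 19 inhibitors of the pathway 1 rose and 2 fell. Trib3, a pseudokinase that binds Akt and is induced by ER stress, rose from 49.7 ± 10.9 to 78.9 ± 6.56 CPM in Ctr cells (0.68, edgeR adjusted p = 7.46e-06) and by 0.79 in αGlu cells. The phosphatases Inppl1 (-0.31) and Ptprf (-0.17) fell in Ctr cells, with -0.22 (called) and -0.13 (not passed) in αGlu cells. In the MAP kinase branch 2 of 10 genes rose and 1 fell in Ctr cells, and the kinase Araf rose by 0.31 there and by 0.34 in αGlu cells.

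Of 14 tested FoxO target genes, 4 rose and 2 fell in Ctr PA, and 4 rose and 4 fell in αGlu PA. Pdk4, which shuts pyruvate out of mitochondrial oxidation, rose from 16.1 ± 2.71 to 39.2 ± 9.99 CPM (1.26), and the coactivator Ppargc1a rose from 3.86 ± 0.742 to 7.37 ± 1.36 CPM (0.93). Txnip, which binds thioredoxin, fell by 0.52 on the log2 scale, and the stress gene Sesn1 fell by 0.35. These 4 were called in αGlu cells too, at 1.16, 0.80, -0.57 and -0.38. The list thus moved both ways, and its median of -0.02 in Ctr cells lay near that of all genes. Txnip (-1.25) and Cat (-1.31) were the list's most significant genes between the batches.

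The genes whose log2 CPM was most like that of each member were named over the 24 libraries, from 11051 genes with a mean of at least 5 CPM, as a description that shares groups, batches and depth. For Akt2 they were Slc3a2, a chaperone of amino acid transporters (r = 0.93), Neat1 (0.93) and Fut1 (0.92), and within groups and batches these fell to 0.77, 0.59 and 0.55. Irs2 was most like Myo10 (0.95), Arid4a (0.94) and Mical3 (0.94), and Irs1 most like Polr2a, the large subunit of RNA polymerase II (0.90), Dip2b (0.90) and Tet2 (0.89). Pik3r1 was most like Prr14l (0.94), Prkdc (0.93) and Pik3c2a, another PI3-kinase (0.91).

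Insr was most like Cd2ap (0.94), Usp6nl (0.92) and Klhl24 (0.92), which kept 0.92, 0.91 and 0.83 within groups and batches. The genes most like Igf1r, Slc10a7 (0.91), Dgkg (0.91) and Uso1 (0.90), kept only 0.53, 0.47 and 0.35 there. For Igf2r they were Tma16 (0.87), Spg20 (0.85) and Igsf5 (0.85), for Foxo1 Zhx1 (0.88), Ypel2 (0.87) and Gm27033 (0.87), and for Akt1 they included the ribosomal protein gene Fau (0.93) and Dazap1 (0.92).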

How the data were processed

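Stranded mRNA libraries were prepared from total RNA of dispersed islet cells. The authors ran QIAGEN's RNA-seq Analysis Portal (version 5.1) for annotation and normalization, and the submitters' processing notes name GRCm38. For the aligner, annotation release, strand setting and filters the entry is: not given in the sources used here. Deposited counts are reads on exons per gene, and empty cells were read as 0. The deposited TPM values served for levels between genes and ratios, and the deposited RPKM values as their alternative. The 24 CPM columns were not used, and 1 line without a gene held 0 counts.

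Counts were scaled by TMM and tested in R 4.3.3 with edgeR 4.0.16 (filterByExpr with a minimum of 10 counts, quasi-likelihood F-test, group plus batch, all 24 libraries), with Benjamini-Hochberg adjustment over 15916 genes. CPM values carry the TMM scaling. Standard errors were derived from the F statistic. Intervals are at 95%. Library totals ran from 18214719 to 35001979 counts. Reads carry no molecular identifiers, so the spread between libraries sets the precision. Scripts were tested on simulated data. No 2 libraries held identical counts. Alternatives were DESeq2 1.42.0, its size factors, upper-quartile scaling, other filters, no batch term, compared groups alone, each batch alone, the threshold of the study and the omission of each library. The omission of S1 and S23 together and a replicate block of 4 consecutive libraries were added after seeing the data.

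The members and lists were chosen with earlier results of these data known. Besides the members, the rule named up to 4 genes of smallest p per pathway list in Ctr cells and 2 between batches (some are not reported here), the insulin genes and Igf2, the 3 genes most like each member, and the 2 most abundant markers of a list. Positions come from GENCODE M21 and upstream sequences from RefSeq on GRCm38.p6. Authors' fold changes were not used.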

Additional observations from a re-analysis of the deposited data

Results flagged for a closer look

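Among the 40 combinations of member and group, a library lay far from the other 5 of its group in 2. Chance flags about 1 in 20 such groups. Foxo1 stood at 126.8 CPM in Ctr PA S23, where the other 5 libraries of the group ran from 75.7 to 93.3 CPM. Igf1 stood at 4.94 CPM in αGlu PA S8, where the other 5 ran from 0.649 to 2.17 CPM, and this library also held the highest sum of fibroblast and stellate cell markers of its group, 163 CPM. Neither library changed a call of its gene when left out.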

How the results depend on the processing

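For palmitate, 5 members were called in each kind of cell, and these counts (Ctr cells first) became 3 and 3 without the batch term (Irs2 and Pik3r1 were lost), 2 and 1 in batch 1 alone, 2 and 2 in batch 2 alone, and 1 and 1 (Igf1) at the threshold of the study, at which the 7 members called between batches became 0. Fewer libraries went into the fits of 1 batch, and the cause of the losses without the batch term was not tested. With single libraries left out, 4 to 5 members were called in Ctr cells, 4 to 5 in αGlu cells and 7 between batches. With DESeq2, its size factors, upper-quartile scaling, no or a stricter filter, or S1 and S23 both left out, the counts stayed at 5, 5 and 7. No alternative called a member in αGlu against Ctr or in the difference of PA responses. Signs turned for 2 values that had not passed, Igf2r in PA against BSA in Ctr cells of batch 2 (-0.034) and Akt1 in αGlu against Ctr over BSA and PA in batch 1 (-0.013). RPKM in place of TPM could not change the order of the members or their ratios within a library. The measures differ there by a constant factor only, so this was no separate check. The labels share no replicate numbers across groups. A replicate block of 4 libraries with consecutive numbers (S1 to S4 and so on), added after seeing the data and not given by the labels, called 6 members in Ctr cells, where Insr (0.14, edgeR adjusted p = 0.0395) joined the 5, and 5 in αGlu cells, and none in αGlu against Ctr. Over all genes it called 65 in αGlu against Ctr averaged, where the fit without the block called 38, 9 in place of 0 in BSA, and 81 in place of 9 in the difference of PA responses between batches. Libraries of a block deviated together (r = 0.018 to 0.370 over 36 pairs), and 24 of 24 were closest to their own block. According to the study, the groups of a replicate share an animal. That a block is such a replicate is a hint from the data, which the labels do not give. The main tests do not use this pairing. The lowest library of Igf1 held 17 reads.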

Other observations

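Some members varied together among libraries of the same group and batch. After the mean of each group and batch had been removed, Insr and Pik3r1 had a Pearson's r of 0.80 over 24 libraries, and Insr and Igf2r 0.70, while Akt1 and Foxo1 had -0.76. Without S1 and S23, these values over 22 libraries were 0.41, 0.61 and -0.56. The values are a description of libraries that share preparations and depth, and no p is given.

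Markers of Schwann cells and glia were the list that moved with the ASO. Of 8 tested markers 5 were lower in αGlu cells averaged over BSA and PA, with sums of 21.5 to 113 CPM in Ctr BSA and 18.7 to 64.7 CPM in αGlu BSA. In PA the sums were 35.2 to 69.04 CPM in Ctr and 18.3 to 55.7 CPM in αGlu cells. In BSA alone and in PA alone edgeR called 0 of these markers, and DESeq2 called 1 and 4. No insulin or IGF signalling member was called in the averaged comparison.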
